A study of Homo sapiens with 40 samples.

Results

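RNA bound to polyribosomes was compared with total RNA in BEAS-2B cells that carried a control hairpin and had been given IL-13. BEAS-2B is an immortalised human bronchial epithelial line. The comparison holds 10 of the 40 libraries of the series, chosen by their labels alone: 5 polysome libraries and 5 input (total RNA) libraries. In Frac-seq a lysate is separated by sedimentation, RNA is recovered from the heavy fractions where several ribosomes sit on a message, and both that RNA and the unfractionated RNA are sequenced after poly(A) selection. Per the labels, the cells were grown in RPMI with 10% FBS, held overnight in 2% medium, stimulated with IL-13 at 100 ng/ml and collected at 24 h. The control hairpin was carried constitutively by 1 line, and nothing in the labels says whether the 5 replicates were separate cultures. P-values therefore measure a spread between libraries that may be technical. For single genes, p-values and SE rest on the spread within all groups of the 40 libraries, not on these 10 alone. Another 2 conditions are given beside this comparison, each with 5 polysome and 5 input libraries. They are unstimulated cells of the same control line, and IL-13 cells of the line labelled as an IGF2BP3 knockdown.

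A message is read by ribosomes that load at its start codon and move along its coding sequence, so that a long coding sequence has room for more ribosomes than a short one. Sedimentation separates messages by the number of ribosomes they carry, not by the share of their copies that is engaged. Messages outside cytosolic translation, such as those made and read inside mitochondria or long noncoding RNAs held in the nucleus, are known to be sparse among cytosolic polysomes. A value here is a gene's share of its library (CPM, counts scaled to a common library total), so a gene is higher or lower on polysomes relative to the other genes, and the amount of RNA on polysomes per cell was not measured. Both fractions average over all cells of a culture, so fewer cells with a message and less of it per cell cannot be told apart.

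The polysome libraries held between 9173872 and 34082191 estimated counts and the input libraries between 21713842 and 40441061. On the first principal component, with 65.0% of the variance, all 5 polysome libraries lay on one side and all 5 input libraries on the other. On the second, with 14.8%, polysome replicate 2 stood apart: 176 of 6416 genes were more than 2-fold above all 4 other polysome libraries there and 190 more than 2-fold below them, against 0 to 13 and 3 to 107 genes in the other 4. Of 11 airway epithelial markers, only KRT7, KRT8, KRT18 and KRT19 reached a mean of 1 CPM in either fraction, and SCGB1A1 was at 0 in all 10 libraries. Of 10 mesenchymal markers, 8 reached 1 CPM in input, VIM and COL1A1 among them. Of 7 leukocyte markers, CD14 and CD68 reached a mean of 1 CPM in both fractions, the summed level was 8.16 to 40.6 CPM in polysome and 18 to 40.7 CPM in input libraries, and PTPRC and CD3E were at 0 in all 10. Whether such cells had a part in the results was not tested, and no endothelial or erythroid marker reached 1 CPM.

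Of 16735 genes tested with edgeR's quasi-likelihood test, 6583 (39.3%) differed between polysome and input RNA at a Benjamini-Hochberg adjusted p under 0.05. Polysome RNA was higher for 2800 of them (16.7%) and lower for 3783 (22.6%). Genes passing that threshold are called higher or lower below. The median log2 fold change over all genes tested was -0.19 (quartiles -0.99 and 0.53), and the 5 polysome libraries did not overlap the 5 input libraries for 1781 genes on the higher side (10.6%) and 2706 on the lower side (16.2%). Each list below is read against these shares.

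At the low end, among protein-coding genes of at least 10 CPM in a fraction and with no overlap of libraries, stood very long messages: PRPF8 (a core spliceosome protein), MDN1 (a giant ATPase of ribosome assembly), KMT2D (a histone methyltransferase), PRKDC (the catalytic subunit of a DNA repair kinase), POLR2A (the largest subunit of RNA polymerase II), CEP192 (a centrosome scaffold), VPS13B, TRANK1, TNS1 and the read-through gene ANKHD1-EIF4EBP3. At the high end stood short messages: PRDX1 (a peroxide-reducing enzyme), SRSF3 and HNRNPAB (RNA-binding proteins), SKP1 and UBE2T (parts of the ubiquitin pathway), PSMB1 (a proteasome subunit), SSBP1 (a mitochondrial DNA-binding protein), ETFA (an electron carrier of fat oxidation), ISY1 (a splicing factor) and ENSG00000272772, which has no symbol. The start codon context of some of them is printed because it is the place where ribosomes load, with the base 3 before the ATG, the ATG and the base after it in capitals (GENCODE v29 transcript with the longest coding sequence, GRCh38, 5′ to 3′). The first 4 are from genes that were low on polysomes and the last 4 from genes that were high.
PRPF8: tctccgGatATGGccggagt
TRANK1: gccgcaGccATGTgggaccc
MDN1: ccctggGtcATGGagcactt
POLR2A: gcctccGccATGCacggggg
ISY1: agcgacAccATGGcccgaaa
PRDX1: gataggAagATGTcttcagg
SRSF3: gatctcGaaATGCatcgtga
SKP1: ccgaacAccATGCcttcaat
All 8 windows have A or G at position -3, on the low and on the high side alike, and the base after the ATG varies on both. Over 12789 tested genes with an annotated ATG start, 84.7% had A or G there. The share was 86.3% among genes called higher and 87.0% among genes called lower. G after the ATG was found in 52.8% of all, 56.4% of higher and 54.1% of lower genes. These start codons lie at chr17:1684569-1684571 (PRPF8, minus strand), chr3:36944807-36944809 (TRANK1, minus), chr6:89819605-89819607 (MDN1, minus), chr17:7484765-7484767 (POLR2A, plus), chr3:129160973-129160975 (ISY1, minus), chr1:45519041-45519043 (PRDX1, minus), chr6:36596763-36596765 (SRSF3, plus) and chr5:134174020-134174022 (SKP1, minus).

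PRPF8 (ENSG00000174231) measured 10.7, 21.2, 35.4, 21.5 and 11.7 CPM in the polysome libraries and 781, 812, 423, 860 and 333 CPM in input. Every polysome library lay far under the lowest input library, and the log2 fold change was -4.98 ± 0.33 (SE, n = 5 and 5; edgeR adjusted p = 2.25e-14). PRKDC measured 4.98, 4.32, 11.0, 7.29 and 13.6 CPM in polysome RNA and 473, 532, 264, 294 and 192 CPM in input, a log2 fold change of -5.42 ± 0.38. Of the 10 lowest genes these were the 2 most abundant in input. MDN1 (log2 fold change -4.90), KMT2D (-4.88), POLR2A (-4.74), TRANK1 (-5.18) and CEP192 (-4.75) were called lower as well, with polysome means of 0.797, 2.02, 4.81, 0.81 and 0.668 CPM. Without polysome replicate 3 TRANK1 had -6.59, and without polysome replicate 2 POLR2A had -5.36. TNS1, a focal adhesion protein, had no count in any of the 5 polysome libraries and 7.57, 19.9, 8.29, 13.5 and 12.2 CPM in input, which is at least 63.3-fold lower against a floor of 3 counts in each polysome library. ANKHD1-EIF4EBP3 overlaps ANKHD1 and EIF4EBP3 on the same strand, so its reads may be split between genes by the counting, and its value is uncertain.

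PRDX1 (ENSG00000117450) measured 2989, 1924, 2258, 1587 and 2061 CPM in the polysome libraries and 336, 422, 482, 643 and 678 CPM in input. The lowest polysome library lay well above the highest input library, and the log2 fold change was 2.08 ± 0.25 (edgeR adjusted p = 1.2e-08). HNRNPAB was steady within each fraction, at 1790, 2055, 1898, 2062 and 2010 CPM on polysomes and 493, 538, 445, 505 and 516 CPM in input (log2 fold change 1.97 ± 0.14). SRSF3 (2.01), SKP1 (1.97), UBE2T (1.96), PSMB1 (1.94), SSBP1 (2.01) and ETFA (1.93) moved by about the same factor. These genes were chosen as the largest fold changes without overlap of libraries. Neither their similar size nor the lack of overlap is therefore a finding, and the latter holds for the low end as well. Among called protein-coding genes of at least 10 CPM in a fraction and without overlap of libraries, the 10 of largest fold change lay between 1.93 and 2.18 on the log2 scale and the 10 of smallest at -4.74 or below. Over all genes tested, low ones included, fitted values ran from -11.14 to 11.26. ISY1 overlaps ISY1-RAB43 on the same strand, and ENSG00000272772 overlaps PPP2CA and SKP1, so these values are uncertain.

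**Figure D1:**
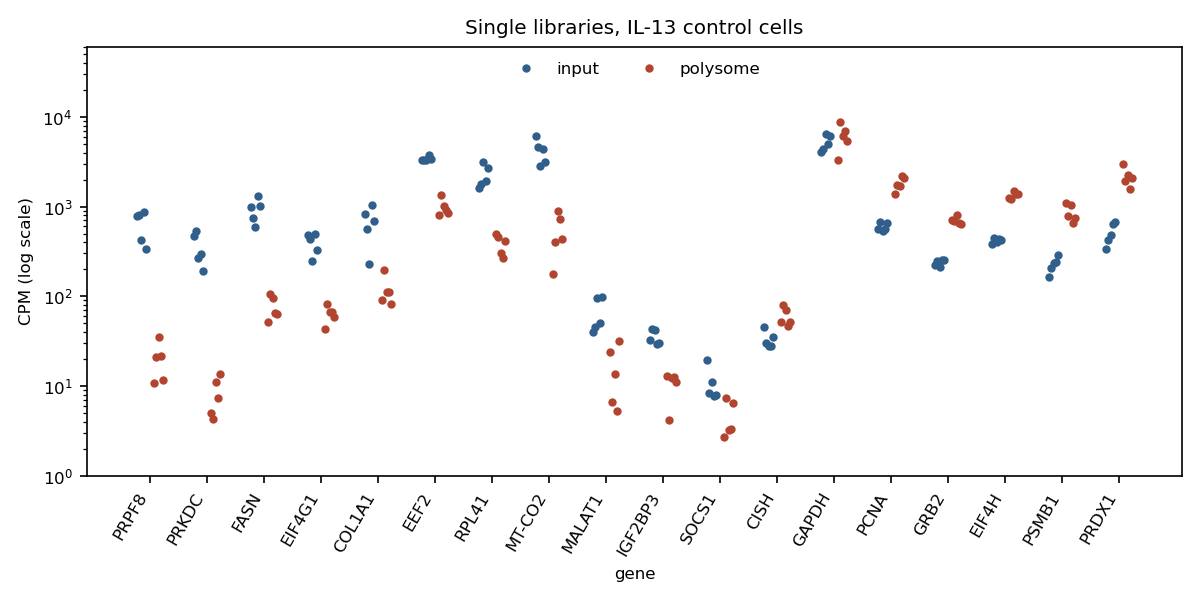
Levels of 18 genes in single libraries, with CPM on a log axis and 1 point per library (blue, 5 input libraries; red, 5 polysome libraries). PRPF8 and PRKDC lie far lower in all 5 polysome libraries, GAPDH overlaps, and PRDX1 lies above its input values in all 5 polysome libraries.

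Coding length ordered these differences, with a maximum at 600 to 1200 nt. Coding length is that of the longest annotated coding sequence of a gene in the basic set of GENCODE v29. For POLR2A that set holds only a coding sequence of 1698 nt, while the length recovered from the files was 6136 nt. The 3853 genes of 600 to 1200 nt had a median log2 fold change of 0.55, with 1574 called higher (40.9%) and 315 lower (8.18%). The median was 0.06 for the 3132 genes of 1200 to 1800 nt and -0.42 for the 1801 of 1800 to 2400 nt. It went on to -0.82 at 2400 to 3600 nt (1681 genes) and -1.48 at 3600 to 6000 nt (909 genes). Above 6000 nt it was -2.32 for 351 genes, of which 281 were called lower (80.1%) and 2 higher. Below the maximum the order turned: the median was -0.03 for 1451 genes of 300 to 600 nt, slightly above 0 with DESeq2's size factors, and -0.72 for 267 genes of up to 300 nt, of which 115 were called lower and 9 higher.

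**Figure D2:**
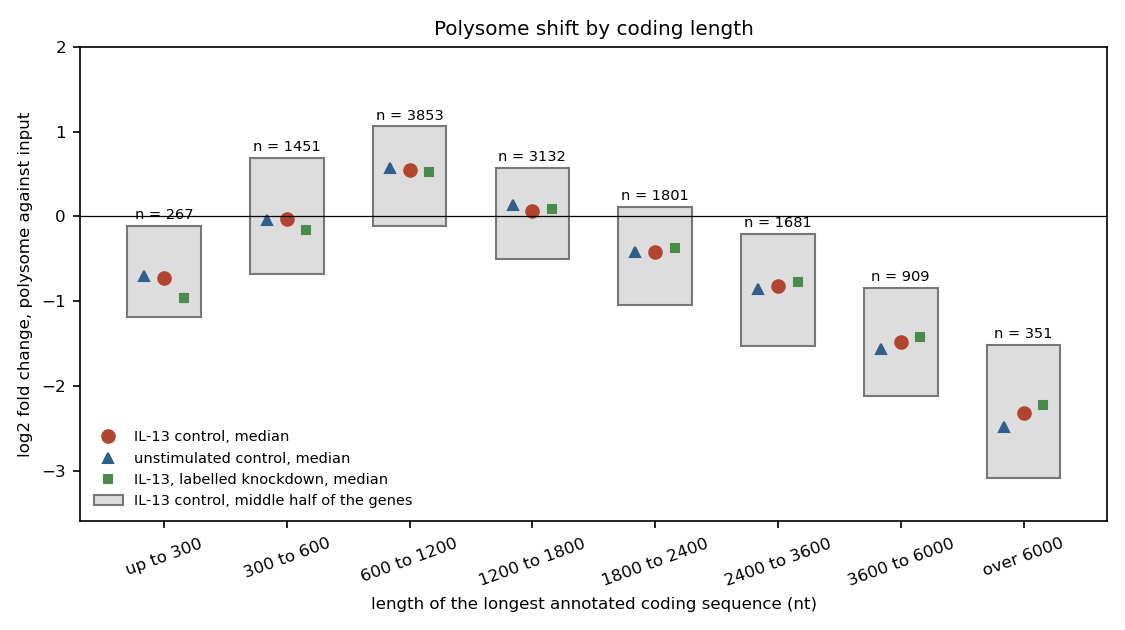
Log2 fold change of polysome against input RNA by coding length in nt. Grey bars run from the lower to the upper quartile of IL-13 control cells, circles their medians, triangles the medians of unstimulated control cells and squares those of IL-13 cells labelled knockdown; n is the number of genes. The medians peak at 0.55 for 600 to 1200 nt and reach -2.32 above 6000 nt.

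The same order was present in single libraries. Among genes of at least 10 CPM, the 792 genes with coding sequences over 3600 nt made up 7.71%, 7.19%, 4.86%, 7.95% and 5.34% of the CPM of the input libraries and 1.80%, 2.66%, 2.37%, 2.39% and 2.11% of the polysome libraries. The 2615 genes of 600 to 1200 nt made up 27.6%, 27.6%, 31.0%, 31.0% and 31.2% of input and 50.5%, 55.1%, 49.7%, 44.6% and 44.5% of polysome libraries. Neither range overlapped. The mean transcript length weighted by counts was 2125 nt ± 76.6 (SD, n = 5) in polysome and 2513 nt ± 200 (SD, n = 5) in input libraries, and no polysome library reached the lowest input library. A two-sided exact permutation test gave p = 0.00794, the smallest it can give, and an adjusted p of 0.0106 over the 4 measures tested this way. Weighted by TPM, which already divides by length, the same mean was 1290 nt ± 66.7 in polysome and 1213 nt ± 122 in input, 77.2 nt longer with an adjusted p of 0.246 (exact permutation test, n = 5 and 5), so the direction of this summary depends on the weighting.

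**Figure D3:**
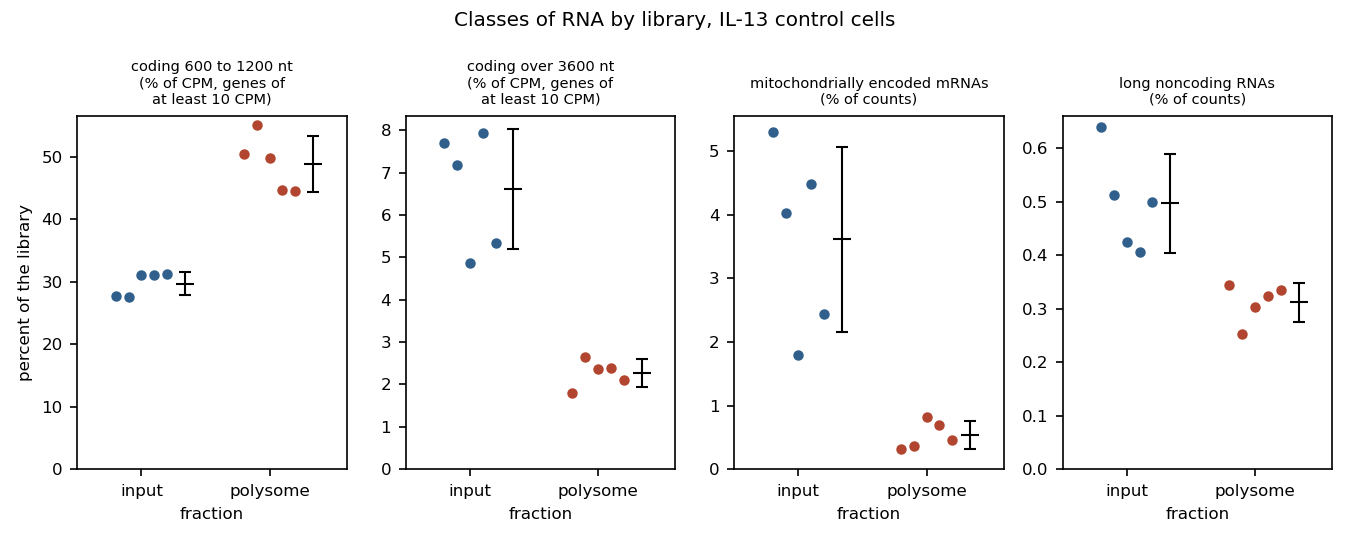
Percent of each library taken by 4 classes of RNA, with 1 point per library (blue, input; red, polysome) and the mean ± SD of 5 libraries as a black bar. The first 2 panels are percent of CPM from genes of at least 10 CPM and the last 2 percent of counts; the fractions do not overlap in any panel.

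Coding length and transcript length go together, so each was also followed with the other held in a range. Transcript length here is that of the annotated transcript with the longest coding sequence, not the length recovered from the files. They can differ widely, as for SKP1 with 9474 nt annotated and 794 nt recovered. Among transcripts of 4000 to 6000 nt, the median log2 fold change was 0.25 for coding sequences of 600 to 1200 nt (423 genes), -0.03 at 1200 to 1800 nt (569 genes), -0.43 at 1800 to 2400 nt (448 genes), -0.84 at 2400 to 3600 nt (635 genes) and -1.38 at 3600 to 6000 nt (426 genes). Among coding sequences of 900 to 1500 nt, transcripts of up to 1500 nt had a median of 0.68 (406 genes) and those over 6000 nt one of 0.09 (316 genes), with values between these at the lengths between. Coding sequences of up to 600 nt in transcripts of 4000 to 6000 nt had a median of -0.07 (131 genes). Among transcripts of 2000 to 3000 nt, the median went from 0.53 at 600 to 1200 nt (945 genes) to -0.65 at 2400 to 3600 nt (126 genes). The medians spanned a wider range by coding length than by this annotated transcript length. The ranges of length covered were unlike, so this does not rank coding length above transcript length. Across 8710 protein-coding genes of at least 10 CPM, Spearman's rho with the log2 fold change was -0.48 for coding length, -0.40 for transcript length, -0.11 for the 3′ UTR and -0.02 for the 5′ UTR. These correlations are across genes, which are not independent replicates and share the same 10 libraries, and are given as a description. GRB2, an adaptor of receptor signalling with a 651 nt coding sequence in a message of 3002 nt as recovered from the files, was among the genes called higher (log2 fold change 1.56).

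**Figure D4:**
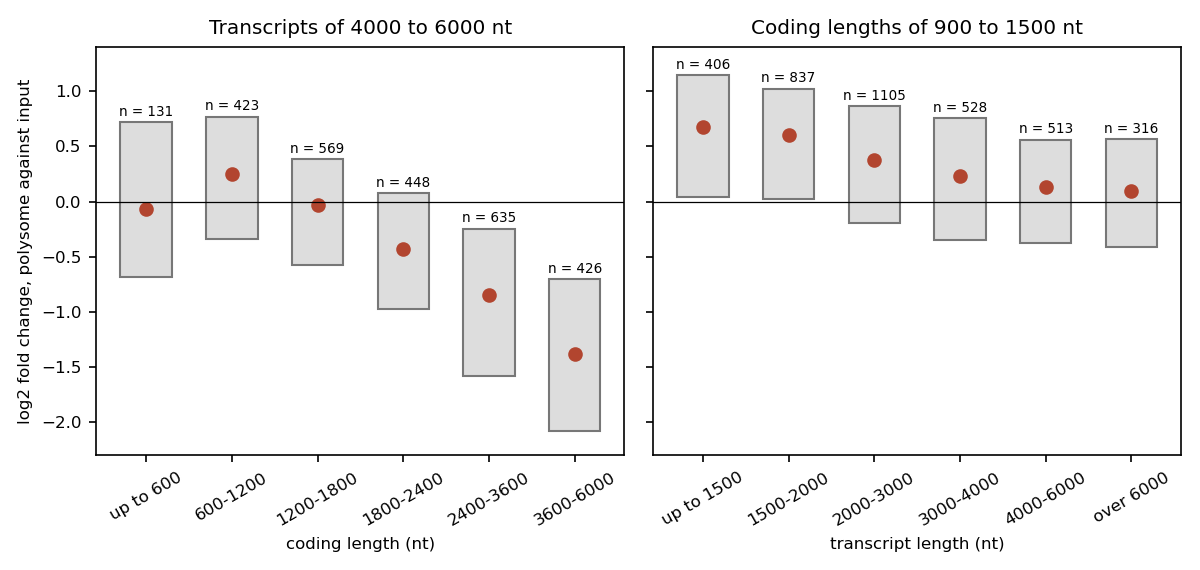
Log2 fold change by coding length among transcripts of 4000 to 6000 nt (left). The right panel shows it by transcript length among coding sequences of 900 to 1500 nt. Transcript lengths are annotated ones. Circles are medians, bars run from the lower to the upper quartile and n is the number of genes. The left medians run from 0.25 to -1.38 from 600 nt on, the right ones from 0.68 to 0.09.

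Upstream start codons and expression level also went with the shift. Among genes with coding sequences of 600 to 1800 nt, the median was 0.41 for 3514 genes with no ATG in the annotated 5′ UTR, 0.32 for 1393 with 1, 0.15 for 696 with 2 and 0.18 for 1356 with 3 or more. What part transcript length, 5′ UTR length or coding length within this range had in that order was not tested. An upstream ATG was annotated for 52.8% of all genes with an ATG start, 45.0% of those called higher and 52.3% of those called lower. Over all genes split into 4 equal groups by mean CPM of all 40 libraries, the median was -0.43 in the lowest group and 0.25 in the highest. Within coding sequences of 600 to 1800 nt it was -0.05 in the lowest group and 0.73 in the highest. That mean includes the polysome libraries, so a gene high on polysomes is ranked higher by its own values. The order by expression is thus in part built in, to an extent that was not tested. At 10 CPM or more, the median of all genes was -0.02 in place of -0.19, with the order by coding length kept: 0.72 at 600 to 1200 nt and -2.52 above 6000 nt.

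Messages made inside mitochondria had the lowest median of the 30 lists. Of the 13 mitochondrially encoded mRNAs, all for subunits of the respiratory chain or ATP synthase, 12 were called lower and 0 higher, with a median log2 fold change of -3.16 (all genes -0.19). The exception was MT-ND6 (-1.93, edgeR adjusted p = 0.144). MT-CO2, a subunit of cytochrome c oxidase, measured 178, 404, 893, 723 and 433 CPM on polysomes and 6108, 4570, 2840, 4324 and 3126 CPM in input. The fractions were apart in every library, by a log2 fold change of -2.99 ± 0.51 (edgeR adjusted p = 9.19e-06). MT-ND4 (-3.70), MT-CO1 (-2.27) and MT-CO3 (-1.84) were called lower too. MT-ND4L (-4.11) overlaps MT-ND4 on the same strand, so their reads may be split between them. Together the 13 mRNAs took 0.530% ± 0.220 (SD, n = 5) of polysome and 3.61% ± 1.45 (SD, n = 5) of input counts, with the highest polysome library at 0.818% and the lowest input library at 1.80% (two-sided exact permutation p = 0.00794, adjusted p = 0.0106).

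Long noncoding RNAs took a smaller share of polysome than of input libraries. They made up 0.312% ± 0.0366 (SD, n = 5) of polysome and 0.497% ± 0.0923 (SD, n = 5) of input counts, without overlap (two-sided exact permutation p = 0.00794, adjusted p = 0.0106). Of 1912 tested, 238 were called lower (12.4%) and 56 higher (2.93%), with a median of -0.46. Both shares are under those of all genes (22.6% and 16.7%). In the lowest of 4 groups of all genes by expression, 9.63% were called lower and 1.24% higher, with a median of -0.43, near the values of long noncoding RNAs. What part expression level had in their shift was not tested. Of 11 nuclear-retained or structural ones on a list, 5 were called lower and 0 higher. MALAT1, a nuclear speckle RNA, measured 23.9, 6.56, 13.6, 5.32 and 31.4 CPM on polysomes and 40.4, 45.4, 95.7, 50.2 and 97.1 CPM in input (log2 fold change -2.04 ± 0.53, edgeR adjusted p = 0.00191). NEAT1, the scaffold of paraspeckles, had a log2 fold change of -2.03, OIP5-AS1 of -2.33, and the cytoplasmic NORAD of -1.38, all called lower. Of 26 host genes of small nucleolar RNAs, 13 were called lower and 0 higher (median -1.22), with GAS5 at -1.95 and SNHG6 at -1.99. Without polysome replicate 2 that median was -1.63. SNHG29 (-3.03) was at 0 in 3 polysome libraries and at 6.96 CPM in polysome replicate 2, without which it had -6.77. Transcripts of small structural RNA classes (snRNA, snoRNA and others) had a median of -3.87 over 35 genes, 23 called lower and 0 higher. Their median was -1.85 in unstimulated control cells and -1.58 in IL-13 cells labelled knockdown, and this difference was not tested.

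The translation machinery did not move as one. Of 79 cytosolic ribosomal protein genes, 38 were called lower and 10 higher (median -0.38), and their share of counts was 5.87% ± 0.566 (SD, n = 5) on polysomes and 7.64% ± 1.47 (SD, n = 5) in input (two-sided exact permutation p = 0.0159, adjusted p = 0.0159). These genes divided by length: of 55 with coding sequences of up to 600 nt, 35 were called lower and 4 higher (median -0.59), and of 22 with 600 to 1200 nt, 3 were lower and 5 higher (median 0.25). RPL41, whose coding sequence of 75 nt is among the shortest known, measured 489, 463, 306, 270 and 409 CPM on polysomes and 1618, 1777, 3117, 1916 and 2694 CPM in input (log2 fold change -2.52 ± 0.24). RPL7A, with 798 nt, was called higher (0.55, edgeR adjusted p = 0.00202). RPL3, with 1209 nt, was called higher as well (0.46, edgeR adjusted p = 0.0217), a call lost without polysome replicate 2 (adjusted p = 0.108), without input replicate 1 (0.0672), without input replicate 2 (0.0527) and with no filter (0.0961). Ribosomal protein genes have many near-identical pseudogenes, so their single values are uncertain.

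Elongation factors and other messages with a 5′ terminal oligopyrimidine tract, the motif that ties their translation to growth signals, were divided: of 15, 7 were called lower, 3 higher and 5 neither (median -0.60). The 6 with coding sequences of 600 to 1200 nt had a median of 0.35, with 1 called higher and 0 lower. Of the 6 with 1200 to 2400 nt, 5 were called lower and 1 higher (median -1.26). That lay below the medians over all genes of such lengths, 0.06 at 1200 to 1800 nt and -0.42 at 1800 to 2400 nt. EEF2, the translocase of elongation, measured 804, 1347, 1024, 926 and 849 CPM on polysomes and 3304, 3340, 3326, 3721 and 3412 CPM in input. The input libraries were close together, and the log2 fold change was -1.79 ± 0.16 (edgeR adjusted p = 5.46e-11). EEF1A1, which brings aminoacyl-tRNA to the ribosome, had -1.79 and the poly(A)-binding protein PABPC1 -2.55. EEF1G had -1.23, with 2286 CPM in polysome replicate 2 and 1016 to 1234 CPM in the other 4. RACK1, a ribosome-bound scaffold, was not called (0.05, edgeR adjusted p = 0.882).

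Of 43 initiation factors, 17 were called higher and 9 lower (median 0.32), and these divided by length. All 12 called among the 15 with 600 to 1200 nt were higher (median 1.24), and all 5 called among the 8 over 2400 nt were lower (median -2.23). EIF4H, a helper of the cap helicase, measured 1251, 1228, 1501, 1381 and 1389 CPM on polysomes and 383, 449, 401, 433 and 421 CPM in input (log2 fold change 1.69 ± 0.12). EIF4G1, the large scaffold of the cap complex, measured 43.1, 82.8, 66.6, 67.6 and 59.4 CPM on polysomes and 477, 440, 246, 496 and 325 CPM in input (-2.63 ± 0.23). EIF4H and EIF4G1 thus lay on opposite sides, each without overlap of libraries. EIF5A was called higher (0.50, edgeR adjusted p = 0.0239), a call lost without polysome replicate 1 (adjusted p = 0.0648), input replicate 1 (0.0873) or input replicate 2 (0.0779), and with no filter (0.0812). Of 20 aminoacyl-tRNA synthetases, whose coding sequences are all over 1200 nt, 12 were called lower and 1 higher (median -1.30). QARS1 had -1.45. IARS1 had -3.24 with polysome replicate 2 at 0 CPM, and -3.90 without polysome replicate 4, the highest of its fraction at 36.7 CPM. YARS1 was the 1 called higher (1.00), while WARS1 was not called (0.63, edgeR adjusted p = 0.133) although its libraries did not overlap. With only the 10 libraries in the fit WARS1 was called higher (0.70, adjusted p = 0.00322).

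Proteasome subunits were the list with the highest median. Of 37, 28 were called higher and 1 lower (median 1.43). PSMB1 measured 1106, 792, 1049, 661 and 746 CPM on polysomes and 166, 207, 235, 240 and 287 CPM in input (log2 fold change 1.94 ± 0.18, edgeR adjusted p = 4.05e-11). PSMB3 (1.74), PSMB7 (1.71), PSMB4 (1.57), the immunoproteasome subunit PSMB8 (1.52) and PSMA7 (0.80) were called higher. PSMD1, a large subunit of the regulatory particle with a coding sequence of 2859 nt, was the 1 called lower (-2.23). The list holds 24 subunits of 600 to 1200 nt, of which 22 were called higher and 0 lower.

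Mitochondrial ribosomal proteins, which are made in the cytosol and imported, stood second: 48 of 78 were called higher and 4 lower (median 0.72). MRPL16 measured 356, 325, 372, 250 and 267 CPM on polysomes and 76.7, 82.9, 67.0, 83.0 and 105 CPM in input (log2 fold change 1.92 ± 0.17). MRPL28 (1.74) and MRPL38 (1.27) each overlap another gene on the same strand. Of the 77 nuclear-encoded subunits of the respiratory chain and ATP synthase, 29 were called higher and 16 lower (median 0.14), unlike their 13 mitochondrially encoded partners. NDUFV1 (1.59) and ATP5F1B (0.73) were called higher and NDUFS1, with 2223 nt, lower (-1.87).

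**Figure D5:**
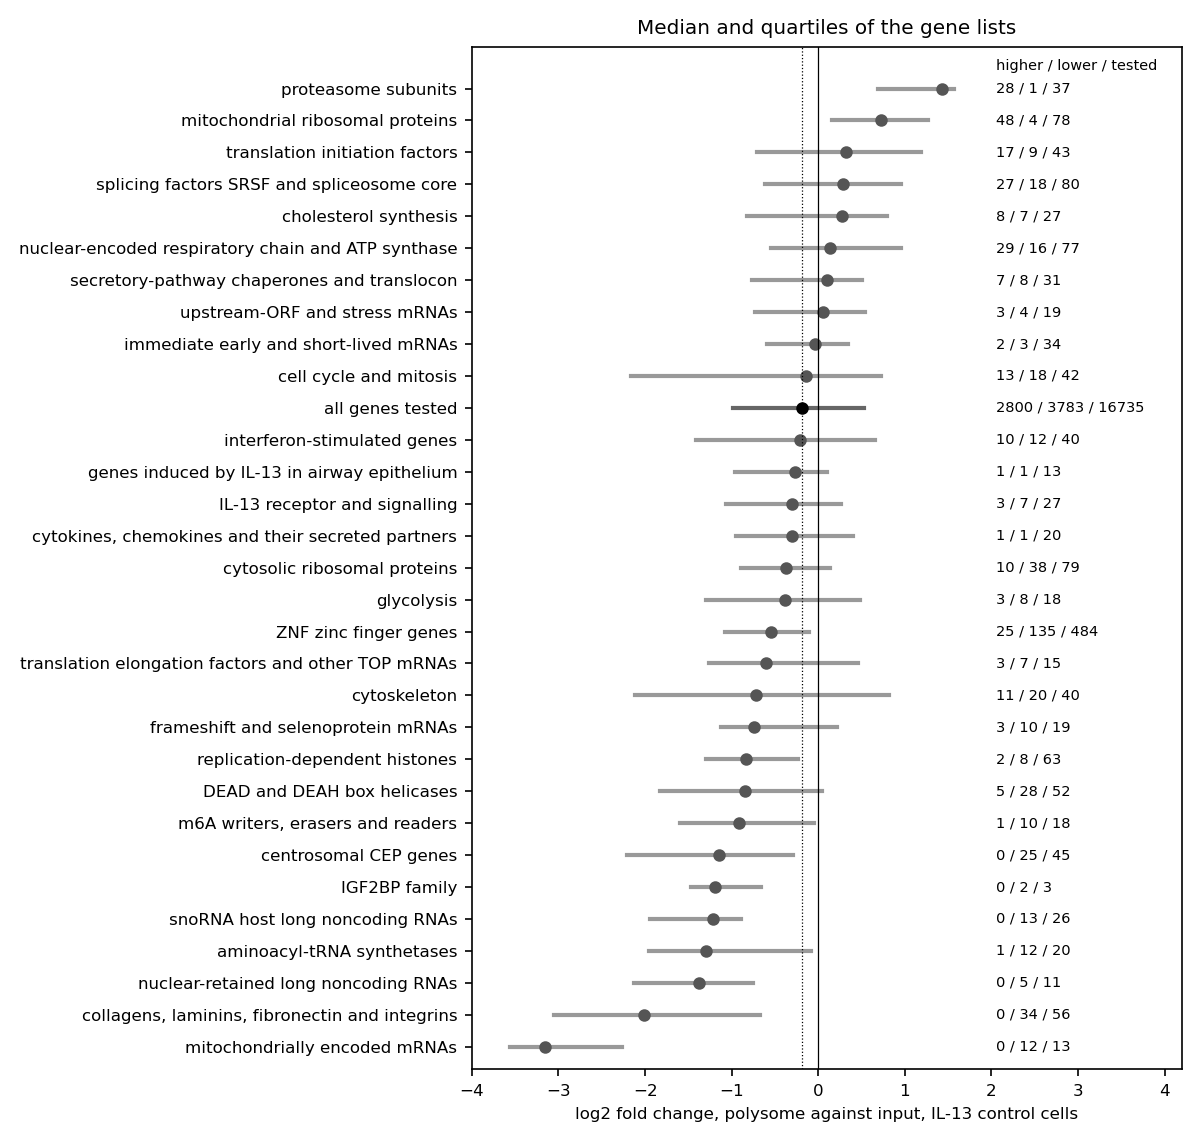
Median log2 fold change (circle) and quartiles of the members (bar) of 30 gene lists and of all genes tested, polysome against input. The numbers at the right are members called higher, called lower and tested; the dotted line is the median of all genes, -0.19. Proteasome subunits lie highest at 1.43 and mitochondrially encoded mRNAs lowest at -3.16.

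Messages for the extracellular matrix and its receptors were low. Of 56 tested collagen, laminin, fibronectin and integrin genes, 34 were called lower and 0 higher (median -2.01), and 45 of them have coding sequences over 2400 nt. Without polysome replicate 2 the median was -2.69. COL1A1, the main chain of type I collagen, measured 90.0, 197, 111, 113 and 81.0 CPM on polysomes and 821, 564, 229, 1035 and 695 CPM in input. Polysome replicate 2 was the highest of its fraction but still under the lowest input library (log2 fold change -2.50 ± 0.31, edgeR adjusted p = 3.29e-08). ITGA3 had -1.91, with 296 CPM in polysome replicate 2 against 73.4 to 104 CPM in the other 4. COL3A1 had no count in any polysome library and at most 2.02 CPM in input, at least 5.01-fold lower by means. ITGB1, the common integrin beta chain, was called lower (-0.66, edgeR adjusted p = 0.0231). That call was lost without polysome replicate 3 (adjusted p = 0.0898) or 5 (0.0605) without input replicate 1 (0.0576) or 4 (0.0539), with only the 10 libraries (0.0727) and with the length offset (0.0583). SPARC, a secreted matrix protein with a coding sequence of 909 nt, was not called (0.17, edgeR adjusted p = 0.707). Of 31 secretory chaperones and translocon parts, 7 were called higher and 8 lower (median 0.10).

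Other housekeeping lists were split, and the split followed length. Of 40 cytoskeletal genes, 11 were called higher and 20 lower (median -0.72): all 13 with coding sequences over 2400 nt were called lower, and of the 12 with 600 to 1200 nt, 8 were called higher and 0 lower. ACTB measured 9478, 20157, 13595, 13762 and 13924 CPM on polysomes and 6904, 7021, 8587, 9480 and 9398 CPM in input, so that the lowest polysome library fell within the range of input (log2 fold change 0.78 ± 0.21, edgeR adjusted p = 0.00286). CFL1, an actin-severing protein, had 1.43 and TUBA1B -0.50 (not called, edgeR adjusted p = 0.0893, but called lower without polysome replicate 2, 0.0469, and among genes of at least 10 CPM, 0.035), while MACF1, a giant crosslinker of actin and microtubules, had -4.14 with 2 polysome libraries at 0. The MACF1 log2 fold change was -5.08 without polysome replicate 3 and -2.84 with an offset for transcript length. Of 42 cell cycle genes, 13 were called higher and 18 lower (median -0.14). The 13 over 2400 nt were all called lower, such as TOP2A (-2.80), a DNA topoisomerase. PCNA, the sliding clamp of DNA replication, measured 1368, 1720, 1708, 2203 and 2067 CPM on polysomes and 565, 677, 532, 569 and 659 CPM in input (1.59 ± 0.15), and TYMS, which makes thymidylate, had 1.62.

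In glycolysis, 3 of 18 genes were called higher and 8 lower (median -0.39). TPI1 (1.57) and PGAM1 (1.70), both small enzymes, were called higher, and GAPDH was not called (0.22, edgeR adjusted p = 0.532), with 3300 to 8752 CPM on polysomes and 4066 to 6431 CPM in input. In cholesterol and fatty acid synthesis, 8 of 27 genes were called higher and 7 lower (median 0.27). FASN, the large multifunctional fatty acid synthase, measured 51.1, 105, 94.7, 64.3 and 63.6 CPM on polysomes and 994, 750, 594, 1311 and 1025 CPM in input (-3.62 ± 0.30). FDPS (0.97) and ACAT2 (1.07), 2 smaller enzymes of the sterol route, were called higher. SCD, whose message of 5070 nt, as recovered from the files, has a coding sequence of 1077 nt, was not called (-0.49, edgeR adjusted p = 0.162).

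Lists of regulatory genes were mostly below the median of all genes, and their medians were lowest among members with coding sequences over 2400 nt. Of 484 zinc finger ZNF genes, 135 were called lower (27.9%, all genes 22.6%) and 25 higher (5.17%, all genes 16.7%), with a median of -0.55. The median was 0.01 for the 40 with coding sequences of 600 to 1200 nt. It was -0.53 for the 349 of 1200 to 2400 nt and -1.21 for the 69 over 2400 nt. Of 45 centrosomal genes, 25 were called lower and 0 higher (median -1.14). The 29 with coding sequences over 2400 nt held 23 of the lower calls (median -2.03), and the 11 of 1200 to 2400 nt had a median of -0.54. CEP350 was at 0 in all 5 polysome libraries and at 6.14 to 10.2 CPM in input, at least 42.6-fold lower, and CEP85 had -1.44. Of 52 DEAD and DEAH box helicases, 28 were called lower and 5 higher (median -0.84). The median was -0.11 for the 29 of 1200 to 2400 nt and -1.75 for the 21 over 2400 nt. Of 18 writers, erasers and readers of the m6A mark on RNA, 10 were called lower and 1 higher (median -0.91). The median was 0.19 for the 4 of 600 to 1200 nt, -0.92 for the 9 of 1200 to 2400 nt and -2.26 for the 5 over 2400 nt. YTHDC2, a reader with helicase activity, had -3.0, and the 1 called higher was the reader YTHDF1 (0.96). Of 80 splicing genes by name, 27 were called higher and 18 lower (median 0.28). The name pattern of that list also takes in pseudogenes.

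Messages with unusual translation did not behave alike. Of 19 messages with regulatory upstream reading frames or a part in the stress response, 3 were called higher and 4 lower (median 0.05). ATF4, whose upstream frames hold back its coding sequence in unstressed cells, measured 141, 150, 97.8, 91.2 and 99.5 CPM on polysomes and 269, 281, 322, 282 and 283 CPM in input (log2 fold change -1.31 ± 0.19, edgeR adjusted p = 3.91e-07). SLC35A4, with another such frame, had -0.53 (adjusted p = 0.0194), and the chaperone HSPA5 -2.67. XBP1 was called higher (0.67, adjusted p = 0.0145), a call lost without polysome replicate 1 (adjusted p = 0.0735). Of 19 messages that need a frameshift or selenocysteine, 10 were called lower and 3 higher (median -0.74). The selenoprotein GPX4 measured 51.1, 162, 73.8, 65.6 and 83.1 CPM on polysomes and 421, 359, 668, 256 and 473 CPM in input (-2.32 ± 0.29), GPX1 had -2.11, and PEG10, which is read by frameshifting, -3.02. GPX4 and GPX1 have coding sequences of 726 and 609 nt, in the range whose median was 0.55. OAZ1, another frameshifted message, was called lower (-0.74, edgeR adjusted p = 0.00811), a call lost without input replicate 5 (adjusted p = 0.0513).

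Genes of the IL-13 response, the stimulus of these cells, showed few calls. Of 40 genes known from airway epithelium, 13 were abundant enough to be tested. Of these, 1 was called higher (7.69%, all genes 16.7%) and 1 lower (7.69%, all genes 22.6%). The median of the list was -0.27, and -0.64 without polysome replicate 2. A gene that was not called is not thereby shown to be unshifted, and what part expression level had in the calls was not tested. The 2 called genes were feedback inhibitors of cytokine signalling. CISH measured 51.3, 80.6, 69.6, 46.1 and 51.8 CPM on polysomes and 45.5, 30.5, 27.6, 27.6 and 35.2 CPM in input (log2 fold change 0.85 ± 0.22, edgeR adjusted p = 0.0022), with a small gap between the fractions. SOCS1 measured 2.71, 7.27, 3.20, 3.29 and 6.52 CPM on polysomes and 19.4, 8.28, 11.0, 7.65 and 7.89 CPM in input (-1.24 ± 0.37, edgeR adjusted p = 0.00734), and without input replicate 1 the adjusted p was 0.0556. CCL26, the eosinophil chemokine eotaxin-3, was not called (-0.87, adjusted p = 0.182), but was called lower with only the 10 libraries in the fit (-0.81, edgeR adjusted p = 0.042). Not called either was HSD3B1, a steroid dehydrogenase (1.10, edgeR adjusted p = 0.0726), which was called higher without input replicate 2 (adjusted p = 0.0158) and with DESeq2's Wald test (0.0148). TGM2, a protein crosslinking enzyme, varied between 0.867 and 21.9 CPM on polysomes and between 9.29 and 60.8 CPM in input (-1.60, adjusted p = 0.181).

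Of 27 genes of the IL-13 receptor and its signalling, 3 were called higher and 7 lower (median -0.30). JAK1, the kinase on the shared receptor, measured 7.80, 8.24, 16.8, 29.0 and 13.3 CPM on polysomes and 121, 144, 122, 108 and 67.4 CPM in input (log2 fold change -2.89 ± 0.38, edgeR adjusted p = 8.61e-08). STAT3, a transcription factor it activates, had -1.81. The adaptor GRB2 measured 704, 692, 811, 662 and 635 CPM on polysomes and 223, 244, 211, 255 and 254 CPM in input, the opposite direction. The adaptor SHC1 was not called (-0.14, adjusted p = 0.505). The phosphatase PTPN1 was called higher (0.57, edgeR adjusted p = 0.0143), a call lost without polysome replicate 4 (adjusted p = 0.0792). Among 20 cytokines and chemokines 1 was called higher and 1 lower (median -0.30, and -0.74 without polysome replicate 2), and among 34 immediate early genes 2 higher and 3 lower. Of 40 interferon-stimulated genes, 10 were called higher and 12 lower, from PARP14 (-4.27, coding length 5403 nt) to the short PSMB8 (1.52). The median of this list was -0.21, and it was 0.20 with an offset for transcript length and 0.30 over its members of at least 10 CPM.

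The 3 IGF2BP proteins bind RNA and steer its stability and translation. IGF2BP3, the target of the hairpin in the other line, measured 12.8, 4.23, 12.3, 12.5 and 11.2 CPM on polysomes and 32.3, 43.3, 42.0, 29.6 and 29.8 CPM in input in these control cells. The fractions were apart in every library, and polysome replicate 2 was the lowest (log2 fold change -1.74 ± 0.38, edgeR adjusted p = 0.000279). IGF2BP1 was called lower (-1.19, adjusted p = 0.0204) at 1.19 to 4.58 CPM on polysomes, a call lost without polysome replicate 1 (adjusted p = 0.0643) or 5 (0.0557) or input replicate 1 (0.0956), and with the length offset (0.194). IGF2BP2 was not called (-0.12, adjusted p = 0.743) and overlapped between fractions, at 29.4 to 81.2 CPM on polysomes and 55.0 to 69.5 CPM in input.

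The polysome shift of IL-13 control cells was set against that of the other 2 conditions, which share no library with it. In unstimulated control cells 6722 genes were called (40.2%) and in IL-13 cells labelled knockdown 6582 (39.3%). Of the 2800 genes called higher in IL-13 control cells, 2516 (89.9%) were also higher in unstimulated control cells, where they made up 86.5% of the higher genes. Of the 3783 called lower, 3138 (83.0%) were also lower there, 82.3% of its lower genes. Only 1 gene was called in opposite directions, higher in IL-13 control cells and lower in unstimulated control cells. The interaction test of the difference between both shifts called 0 of 16735 genes with edgeR (326 at an unadjusted p under 0.05) and 20 with DESeq2's Wald test. How many real differences such a test can find was not tested. In simulated data the simpler comparison of polysome with input recovered 27% of genes changed 2-fold. The lack of calls therefore does not show that the shifts were equal. The medians by coding length were close to those of IL-13 control cells: 0.57 in unstimulated control and 0.52 in IL-13 cells labelled knockdown at 600 to 1200 nt, and -2.48 and -2.23 above 6000 nt. CISH had 0.90 in unstimulated cells and SOCS1 -1.95, in the same directions as with IL-13.

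Against IL-13 cells labelled knockdown, the interaction test called 1 gene of 16735 with edgeR (0.00598%; 300 at an unadjusted p under 0.05) and 10 with DESeq2's Wald test. The 1 gene was TNS1, with a log2 fold change of -2.08 in cells labelled knockdown. In IL-13 control cells its polysome libraries were all at 0, so the fitted difference of -9.06 (edgeR adjusted p = 0.00786) is no bound, and without polysome replicate 4 the test called 0 genes. In unstimulated control cells TNS1 had -3.01. IGF2BP3 itself had -1.44 in the line labelled knockdown and -1.65 in unstimulated control cells, beside -1.74 here. The list of 63 replication-dependent histone genes had a median of -0.84 in IL-13 control cells (8 called lower, 2 higher), 0.87 in unstimulated control cells and 0.82 in IL-13 cells labelled knockdown. Over its members of at least 10 CPM the median in IL-13 control cells was 0.22, and without input replicate 1 it was -0.12. Most histone messages carry no poly(A) tail, and the difference between the 3 medians was not tested.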

How the data were processed

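The file held 62263 genes, with an estimated count and a TPM for each library, named as such per the file headers. TPM were scaled by the authors for length and depth over more features than the table holds. The submitters' processing notes list Trimmomatic, Salmon, DESeq2 and MultiQC. The genome build and annotation behind the table are not given in the sources used here, and the titles write siC where the growth protocol names stable hairpin lines. Columns were matched to samples by title. Symbols matched for 62246 genes, and 57846 had a class in GENCODE v29, which also gave coding lengths and start codons. For the weighted mean length, the length offset and single messages described that way, transcript lengths were recovered from the ratio of deposited counts to TPM. Where coding and transcript length were set against each other, transcript lengths were annotated ones.

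The planned test was for counts. The authors' estimated counts were rounded, filtered with filterByExpr (16735 genes, at least 99.91% of counts kept) and normalised by TMM, and CPM used the resulting effective sizes. edgeR 4.0.16 (R 4.3.3) fitted all 40 libraries by quasi-likelihood, with 8 group means, 32 residual degrees of freedom and no block. The SE of a log2 fold change is its absolute value divided by the square root of the F statistic of that fit. P-values were two-sided, with Benjamini-Hochberg adjustment across the tested genes. Shares and count-weighted length were compared by two-sided exact permutation. The biological coefficient of variation was 0.536 among polysome and 0.372 among input libraries. The model was also tested on simulated data in which 200 genes were changed and all others were equal in both fractions. It recovered 70% of genes changed 4-fold (2.78% of calls false, 16303 genes) and 27% of those changed 2-fold (8.47% false, 16309 genes). In the real comparison 39.3% of genes were called, so these rates need not hold there. Floors of 3 counts reflect counting error alone, as PCR copies were not marked. Replicate libraries all differed by more than sampling noise.

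Named genes were the 10 largest and 10 smallest called log2 fold changes (protein-coding, at least 10 CPM in a fraction, no overlap of libraries), for each of 30 lists the 4 most abundant members and the called member of largest change, and MALAT1, NEAT1, the IGF2BP genes, CISH, SOCS1, CCL26, HSD3B1 and TGM2; not all of them are printed. MT-ND6 was named after its value was seen. The lists, genes and tests were chosen with earlier results of these data known. Alternatives were DESeq2 size factors, DESeq2 1.42.0, no filter, 10 CPM or more, only 10 libraries, a block by replicate number or culture, a length offset, TPM, no libraries under 5000000 counts, and leaving out each library.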

Additional observations from a re-analysis of the deposited data

Results flagged for a closer look

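In groups of 5 libraries, 20 values of 222 examined lay apart from the other 4 by more than Dixon's limit, where chance gives about 11.1. Of these, 9 were in polysome replicate 2. There POLR2A measured 11.4 CPM (others up to 4.24), SNHG29 6.96 (up to 0.294), COL1A1 197 (up to 113), GPX4 162 (up to 83.1), ITGA3 296 (up to 104), QARS1 166 (up to 89.5), EEF1G 2286 (up to 1234) and RPL3 3072 (up to 2288), and IGF2BP3 was low at 4.23 CPM (others from 11.2). In polysome replicate 1, a shallower library, 4 values lay apart: VPS13B at 1.19 CPM (others up to 0.176), ATP5F1B at 860 (from 1439), YARS1 at 150 (from 264) and ENSG00000272772 at 772 (up to 387). In polysome replicate 4, ANKHD1-EIF4EBP3 measured 1.32 CPM (others 0) and MRPL28 292 (from 380). In input replicate 1, SNHG29 measured 7.23 CPM (others from 12.7), SOCS1 19.4 (up to 11.0) and SRSF3 176 (from 245). ATF4 measured 322 CPM in input replicate 3 (others up to 283) and EEF2 3721 CPM in input replicate 4 (others up to 3412).

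The polysome shift of TNS1 differed between IL-13 control cells and IL-13 cells labelled knockdown in the interaction test, with a fitted log2 difference of -9.06 (edgeR adjusted p = 0.00786). The size is set by 5 polysome libraries at 0.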

How the results depend on the processing

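The count of genes called lay between 4905 (10 libraries with the replicate number as a block) and 7040 (DESeq2's Wald test), beside 6583, with 40.3% to 48.3% of calls on the higher side. Leaving out 1 library gave 6051 to 6405 calls, 2530 to 2728 higher and 3491 to 3730 lower, and a median over all genes of -0.22 to -0.17. That median was 0 with no filter and -0.0214 over genes of at least 10 CPM. With only the 10 libraries it was -0.09, a shift of over 0.1 from -0.19. The difference from unstimulated cells called 20 genes with DESeq2's Wald test, 1 with no filter and 1 without libraries under 5000000 counts, beside 0. The difference from cells labelled knockdown called 10 genes with the Wald test and 0 with the culture as a block, and 0 to 1 without single libraries. The cause was not tested.

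The values gave no sign of pairing by replicate number: deviations of same-numbered polysome and input libraries correlated between -0.485 and 0.149, and 1 of 5 correlated best with its own number. Whether same-numbered libraries came from 1 culture is not in the labels, and these correlations cannot settle it. In a sign-flip test with the replicate block, where 5 pairs give a smallest p of 0.0625, the differences of shares (polysome minus input) were -3.08 percentage points for mitochondrially encoded mRNAs, -1.77 for ribosomal protein genes and -0.19 for long noncoding RNAs, and -388 nt for length, with adjusted p of 0.0833, 0.125, 0.0833 and 0.0833 (exact permutation). Without single libraries they lay between -3.53 and -2.66, -2.14 and -1.27, -0.21 and -0.15, and -450 and -343 nt. The length weighted by TPM gave 77.2 nt in the opposite direction.

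Of 836 values of named genes under other settings, 814 kept direction and call, and of 1060 without single libraries, 1038 did. RACK1 turned to -0.0108 with the culture block and -0.00273 at 10 CPM or more. Without single libraries RACK1 lay between -0.17 and 0.18, IGF2BP2 between -0.272 and 0.0467 and SPARC between -0.15 and 0.299, each turning without polysome replicate 2. With the replicate number as a block, calls were lost for SLC35A4 (-0.46, edgeR adjusted p = 0.0704), SOCS1 (0.0643), IGF2BP1 (0.0894), OAZ1 (0.0893), EIF5A (0.0598) and PTPN1 (0.0675), and gained for WARS1 (0.0189) and HSD3B1 (0.0493). With the culture as a block, EIF5A was lost (0.0556), and TGM2 (-1.93, 0.0393) and WARS1 (0.00173) were gained. Of 4184 genes in the lowest of 4 groups by expression, 52 were called higher and 403 lower, and what part depth had in this was not tested.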
